A study of Mus musculus with 14 samples.

Results

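A set of 8 genes of thyroid hormone activation, transport and action, namely Dio2, Dio3, Hr, Trh, Trhr, Thra, Thrb and Slco1c1, was followed in the hypothalamus of fed and fasted mice. They were chosen by gene symbol in the annotation of the array platform, and each gene was represented by the probe set that names only it and has the highest mean over the 14 arrays. Of the 8 genes, 7 were measured, among 17097 genes tested on the arrays. No probe set is named by Dio3 alone in that annotation, so Dio3 was not analysed here. A probe set for Dio3os, the antisense RNA of the same locus, had a mean of 3.93 on the log2 scale and does not stand for Dio3.

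Thyroid hormone reaches the brain mainly as thyroxine, which transporters such as the product of Slco1c1 carry across the blood-brain barrier. In the brain, the type 2 deiodinase encoded by Dio2, made by astrocytes and by the tanycytes that line the third ventricle, converts thyroxine into the active hormone triiodothyronine. The type 3 deiodinase encoded by Dio3 inactivates it. Triiodothyronine acts through the nuclear receptors encoded by Thra and Thrb, and the product of Hr is a corepressor of those receptors whose own gene is induced by thyroid hormone in brain. Neurons of the paraventricular nucleus make thyrotropin-releasing hormone from Trh, which drives the pituitary and thyroid through its receptor, Trhr, and fasting is a known setting in which this axis is turned down.

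There were 4 fed arrays and 3 fasted arrays of control mice, and likewise 4 fed arrays and 3 fasted arrays of knockout mice. All mice were 12 weeks old on a background mixed from C57Bl/6J, FVB/N and 129 stock, were either fed at random or fasted for 16 h, and in the knockout groups lacked Mfn1, a mitochondrial fusion protein, in neurons that express pro-opiomelanocortin (POMC). The Cre line, the sex of the mice and the controls' alleles are not given in the sources used here, and no label states that an array is a single animal, so that the p-values refer to the spread of these samples, which may be technical. RNA came from whole hypothalamus, in which fewer cells of a type and less RNA per cell cannot be told apart.

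Values are log2 expression values normalised across arrays, and a difference of 1 is a 2-fold change of signal. The median of an array lay between 4.98 and 5.05, and 23 probe sets without a target, a measure of background signal, had a median of 3.64 and a highest mean of 5.28. Mfn1 itself was at 9.04 ± 0.06 (SD, n = 4) in control fed, 9.06 ± 0.01 (n = 3) in control fasted, 9.06 ± 0.04 (n = 4) in knockout fed and 9.06 ± 0.04 (n = 3) in knockout fasted mice, so the deletion in a small set of neurons could not be checked from whole tissue. Markers of neighbouring tissue varied between arrays. The score of cortex and hippocampus markers, the mean of their centred log2 values, reached 0.80 in replicate 1 of the control fed group and 0.27 in replicate 4 of the knockout fed group, against -0.22 to -0.05 in fasted arrays. The numbers in the sample titles form a lower and a higher run. The lower run holds all 6 fasted arrays and 1 fed array, knockout fed replicate 1, so that what goes with the run of numbers and what goes with fasting can be separated only through that array. The score of choroid plexus markers in that array was -1.39, against 1.03 to 1.50 in the other knockout fed arrays. In control fed arrays that score ran from -1.54 to 0.82.

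The promoters of 5 of the 8 genes were found in the RefSeq promoter table (build GRCm38.p6). The 3 most relevant are shown, those of the deiodinase that rose, the transporter that fell and the releasing hormone of the axis, as the 250 bases before the start of transcription, with the letters that matched a searched motif in capitals.
Dio2, chr12:90739039-90739288, minus strand: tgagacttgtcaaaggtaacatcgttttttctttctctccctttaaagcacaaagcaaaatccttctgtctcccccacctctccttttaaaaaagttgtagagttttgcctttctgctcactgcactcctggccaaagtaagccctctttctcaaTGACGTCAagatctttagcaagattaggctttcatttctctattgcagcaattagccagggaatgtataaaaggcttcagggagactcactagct
Slco1c1, chr6:141524104-141524353, plus strand: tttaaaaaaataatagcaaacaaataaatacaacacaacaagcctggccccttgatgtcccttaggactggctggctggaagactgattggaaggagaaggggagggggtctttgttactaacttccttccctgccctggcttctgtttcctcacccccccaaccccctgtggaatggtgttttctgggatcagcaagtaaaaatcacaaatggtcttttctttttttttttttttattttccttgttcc
Trh, chr6:92244651-92244900, minus strand: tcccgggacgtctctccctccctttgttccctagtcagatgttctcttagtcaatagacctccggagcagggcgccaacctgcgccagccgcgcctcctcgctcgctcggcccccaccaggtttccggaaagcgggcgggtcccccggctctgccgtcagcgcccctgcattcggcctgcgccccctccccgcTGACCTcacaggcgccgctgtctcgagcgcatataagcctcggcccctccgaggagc
The motifs searched on both strands, from 250 bases before to 50 bases after the start, were the thyroid hormone response element half-site AGGTCA, the glucocorticoid response element core ACANNNTGT and the cyclic AMP response element TGACGTCA. No motif overlapped another in the windows shown. In the Dio2 window the capitals are TGACGTCA, from 95 to 88 bases before the start, and 1.79% of 32851 promoter windows of the same length hold this motif. In the Trh window the capitals are TGACCT, the half-site read on the opposite strand, from 57 to 52 bases before the start. The half-site is held by 16.3% of windows, and the first of 2 windows of Thrb on chromosome 14 also has it, 184 to 179 bases before the start. None of the letters searched is in the Slco1c1 window. ACANNNTGT is in 6.85% of windows and in none of those of the 5 genes. Each match is a description of letters.

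Across both genotypes, fasted hypothalamus had more Dio2 and Hr transcript and less Slco1c1 transcript than fed hypothalamus. Dio2 was 1.82-fold higher and Slco1c1 1.45-fold lower. The Slco1c1 call lay close to the threshold and held in 7 of 21 alternative analyses. Within either genotype alone, none of the 7 genes passed. With the run of sample numbers as a term in the fit, 0 of the 7 genes passed. Hr was higher by 0.70 on the log2 scale, at levels within or near the background signal, for which no fold is given. The receptors Thra and Thrb, the peptide precursor Trh and its receptor Trhr did not pass the test. In limma, 3 of the 7 measured genes passed an adjusted p of 0.05, 2 of them upward and 1 downward, and the unadjusted p was under 0.05 for 4. Of all genes tested, 10.0% passed in this comparison, 5.14% higher and 4.90% lower. The median difference of the 7 genes was -0.06, against 0.00 for all genes.

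**Figure D1:**
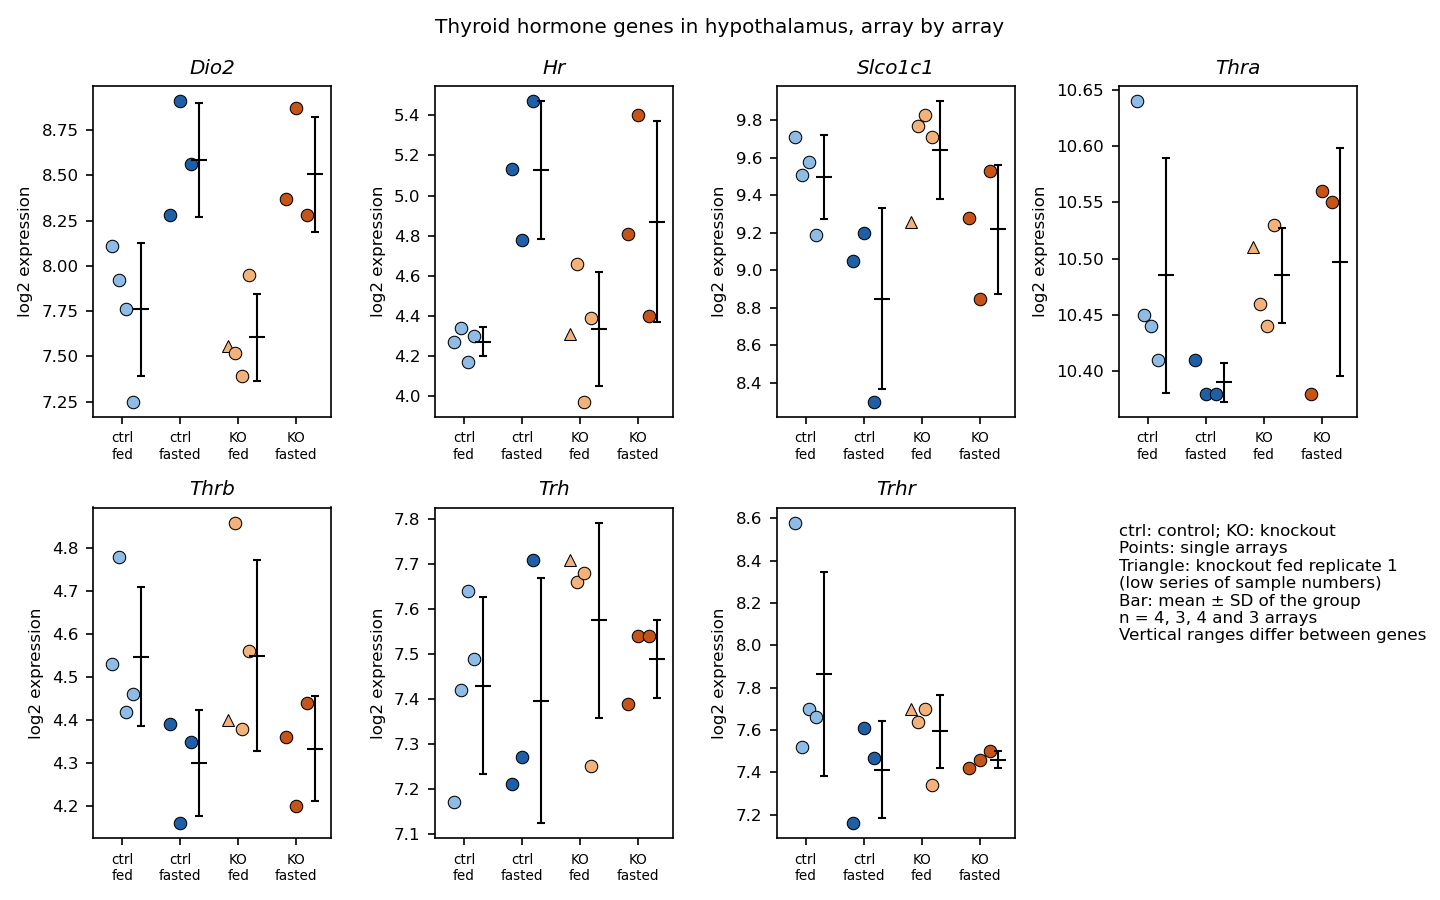
Log2 expression (vertical axis, its range set for each gene) of the 7 measured genes in every array of the 4 groups (horizontal axis); bars are the mean ± SD of a group, and the triangle is knockout fed replicate 1, the fed array in the lower run of sample numbers. All 6 fasted arrays lie at or above 8.28 for Dio2 and all 8 fed arrays at or below 8.11, while the other genes overlap between fed and fasted arrays.

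Dio2 (Entrez gene 13371, chromosome 12) was read by the probe set 1418937_PM_at. Its log2 values were 8.11, 7.92, 7.76 and 7.25 in control fed mice and 7.56, 7.52, 7.39 and 7.95 in knockout fed mice. They were 8.28, 8.91 and 8.56 in control fasted mice and 8.37, 8.87 and 8.28 in knockout fasted mice. Every fasted array was above every fed array, and fasted replicate 2 was the highest of its group in both genotypes. Group means were 7.76 ± 0.37 (SD, n = 4) in control fed, 8.58 ± 0.32 (n = 3) in control fasted, 7.61 ± 0.24 (n = 4) in knockout fed and 8.51 ± 0.32 (n = 3) in knockout fasted mice. In the order of these means, the fasted groups came first, and the step from knockout fasted down to control fed, 0.75, was the only one larger than the SD of the groups beside it. The averaged fasting difference was 0.86 ± 0.15 (SE, adjusted p = 0.00387, 95% interval 0.54 to 1.19).

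Among the 7 genes, Dio2 alone had no overlap between all fed and all fasted arrays, and 3.40% of all genes did the same. The difference was 0.82 ± 0.21 in control mice (adjusted p = 0.0561) and 0.90 ± 0.21 in knockout mice (adjusted p = 0.0721), so neither genotype on its own passed the threshold. Knockout fed replicate 1, the fed array of the lower run of numbers, was at 7.56, below all 6 fasted arrays and within the range of the other fed arrays. With the run of numbers as a term in the fit, the difference was 0.92 with an adjusted p of 0.334.

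Both further probe sets of Dio2 moved the same way. The difference was 0.42 ± 0.11 for 1426081_PM_a_at (adjusted p = 0.0261) and 0.46 ± 0.13 for 1418938_PM_at (adjusted p = 0.0396). For 1426081_PM_a_at, fed arrays lay between 5.05 and 5.75 and fasted arrays between 5.69 and 6.18. For 1418938_PM_at, fed arrays lay between 4.37 and 5.16 and fasted arrays between 4.76 and 5.58, which is near the background signal. The 3 probe sets of the gene therefore gave differences of unequal size and of 1 sign.

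Genes of the cell types that make the deiodinase gave different pictures. Of 12 astrocyte markers, 4 were higher and 1 lower in fasted mice, where 10.0% of all genes passed in either direction. The higher ones were Gjb6, a gap junction protein, with 0.72 ± 0.08 (adjusted p = 0.000329), Fgfr3 with 0.60 ± 0.05 (adjusted p = 3.5e-05), Agt, which encodes angiotensinogen, with 0.56 ± 0.05 (adjusted p = 2.70e-05), and Aldh1l1 with 0.33 ± 0.04 (adjusted p = 0.000753). Aqp4, the astrocyte water channel, fell by 0.36 ± 0.06 (adjusted p = 0.00227). The median difference of the 12 markers was 0.08, against 0.00 for all genes. The score of the whole astrocyte list lay between -0.12 and -0.04 in fed arrays and between 0.05 and 0.22 in fasted arrays, without overlap. Its part in the difference of Dio2 was not tested.

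Of 12 tanycyte markers measured, 1 passed, Cd59a, which rose by 0.23 ± 0.06 (adjusted p = 0.0193), where 10.0% of all genes passed. The scores of the tanycyte list overlapped, from -0.15 to 0.16 in fed and from -0.12 to 0.13 in fasted arrays. Rax, a defining tanycyte transcription factor, was at 3.82 to 4.26, near the background signal, whereas Vim was at 8.85 to 9.34.

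Of 12 measured genes for other deiodination steps and for selenoprotein synthesis, 1 rose and none fell, where 10.0% of all genes passed. The deiodinases are selenoproteins, and the gene that rose was Selenop, whose product supplies selenium to the brain. Selenop was at 12.32 to 12.43, with a median of 12.38, in fed arrays and at 12.46 to 12.62, with a median of 12.58, in fasted arrays. No fasted array overlapped a fed array, and the difference was 0.19 ± 0.03 (adjusted p = 0.00386). Dio1, the type 1 deiodinase of liver and thyroid, was at 3.68 to 4.03, which is background signal. The median difference of this list was -0.02, against 0.00 for all genes.

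Slco1c1 (Entrez gene 58807, chromosome 6) encodes the thyroxine transporter of brain endothelium and astrocytes, and it was read by 1 probe set, 1423343_PM_at. Its log2 values were 9.71, 9.51, 9.58 and 9.19 in control fed mice and 9.26, 9.77, 9.83 and 9.71 in knockout fed mice. They were 9.05, 9.20 and 8.30 in control fasted mice and 9.28, 8.85 and 9.53 in knockout fasted mice. Control fasted replicate 3 was the lowest of all arrays, and fed and fasted arrays overlapped. Group means were 9.50 ± 0.22 (SD, n = 4) in control fed, 8.85 ± 0.48 (n = 3) in control fasted, 9.64 ± 0.26 (n = 4) in knockout fed and 9.22 ± 0.34 (n = 3) in knockout fasted mice. No step in the order of the group means was larger than the SD of the groups beside it.

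The averaged fasting difference of Slco1c1 was -0.54 ± 0.15 (SE, adjusted p = 0.0441, 95% interval -0.87 to -0.20). It was -0.65 ± 0.22 in control mice (adjusted p = 0.142) and -0.42 ± 0.22 in knockout mice (adjusted p = 0.358). The call lay close to the threshold. Leaving out any of 10 of the 14 arrays, which are all but control fasted replicate 2, control fed replicate 4, knockout fasted replicate 3 and knockout fed replicate 1, took the adjusted p to between 0.0554 and 0.118. Without control fasted replicate 3 the difference was -0.40 (adjusted p = 0.0881), and without both arrays high in cortex markers it was -0.49 (adjusted p = 0.108). Knockout fed replicate 1 was at 9.26, within the fasted range, and with the run of numbers as a term the difference was -0.09 (adjusted p = 0.959). That array had a lower choroid plexus score than the other knockout fed arrays, and the part of this in the difference was not tested.

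Of 10 measured markers of brain endothelium, 1 was higher and 2 were lower in fasted mice, where 10.0% of all genes passed. Slc2a1, the glucose transporter of the barrier, rose by 0.62 ± 0.10 (adjusted p = 0.00302), Tek fell by 0.64 ± 0.12 (adjusted p = 0.00665) and Cdh5, the endothelial cadherin, fell by 0.30 ± 0.05 (adjusted p = 0.00449). The scores of the list overlapped, from -0.19 to 0.11 in fed and from -0.09 to 0.08 in fasted arrays. The part of these cells in the difference of Slco1c1 was not tested.

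Of 9 other measured carriers of iodothyronines, 4 rose in fasted mice, none fell and 5 did not pass, where 10.0% of all genes passed. The median difference of the carriers was 0.16, against 0.00 for all genes. Slc7a5, the light chain of the large neutral amino acid transporter, which also carries thyroid hormones, was at 8.12 to 8.53, with a median of 8.26, in fed arrays and at 8.76 to 9.07, with a median of 8.82, in fasted arrays. Fed and fasted arrays did not overlap, and the difference was 0.57 ± 0.06 (adjusted p = 0.000163). It passed in each genotype, with 0.54 ± 0.09 in control mice (adjusted p = 0.0043) and 0.61 ± 0.09 in knockout mice (adjusted p = 0.00708).

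Slc3a2, the heavy chain that pairs with it, was at 9.72 to 9.90, with a median of 9.83, in fed arrays and at 9.95 to 10.06, with a median of 10.03, in fasted arrays. These ranges did not overlap either, and the difference was 0.20 ± 0.04 (adjusted p = 0.00635). Of the organic anion transporters, Slco4a1 rose by 0.40 ± 0.10 (adjusted p = 0.0223), at levels of 4.31 to 5.26 near the background signal, and Slco3a1 by 0.27 ± 0.07 (adjusted p = 0.0332). The call of Slco4a1 was lost without control fasted replicate 1 (adjusted p = 0.0593) or knockout fasted replicate 2 (adjusted p = 0.0644). That of Slco3a1 was lost when any of 8 arrays was left out, which were fasted replicate 2 of both genotypes, control fasted replicate 3, control fed replicates 2, 3 and 4 and knockout fed replicates 2 and 3, with adjusted p up to 0.0917. Averaging the probe sets of Slco3a1 gave 0.17 (adjusted p = 0.0723). In control mice 2 of the 9 carriers passed, both higher, where 2.76% of all genes passed in either direction, and in knockout mice 1 passed, where 0.696% of all genes did.

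Hr (Entrez gene 15460, chromosome 14) was read by 1 probe set, 1422110_PM_at. Its log2 values were 4.27, 4.34, 4.17 and 4.30 in control fed mice and 4.31, 4.66, 3.97 and 4.39 in knockout fed mice. They were 5.13, 4.78 and 5.47 in control fasted mice and 4.81, 5.40 and 4.40 in knockout fasted mice. In control mice every fasted array was above every fed array, and in knockout mice fasted replicate 3 lay among the fed arrays. All these values are within the range of probe sets without a target or just above it, where the authors' normalisation compresses differences.

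The group means of Hr were 4.27 ± 0.07 (SD, n = 4) in control fed, 5.13 ± 0.35 (n = 3) in control fasted, 4.33 ± 0.28 (n = 4) in knockout fed and 4.87 ± 0.50 (n = 3) in knockout fasted mice. The step between knockout fasted and knockout fed, 0.54, was larger than the SD of either group, and the other steps were not. The averaged fasting difference was 0.70 ± 0.15 (SE, adjusted p = 0.0124, 95% interval 0.37 to 1.02). It was 0.86 ± 0.21 in control mice (adjusted p = 0.0505) and 0.54 ± 0.21 in knockout mice (adjusted p = 0.235). The fed array of the lower run of numbers was at 4.31, below all 6 fasted arrays, and with the run as a term the difference was 0.72 (adjusted p = 0.462).

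Neither nuclear receptor passed the test. Thra (Entrez gene 21833, chromosome 11) was at 10.64, 10.45, 10.44 and 10.41 in control fed mice and at 10.51, 10.46, 10.44 and 10.53 in knockout fed mice. It was at 10.41, 10.38 and 10.38 in control fasted and at 10.38, 10.56 and 10.55 in knockout fasted mice. The values of all arrays lay within 10.38 to 10.64, and the difference of -0.04 ± 0.05 (adjusted p = 0.614) had a 95% interval of -0.14 to 0.06. Its second probe set, 1443952_PM_at, had a difference of -0.16 ± 0.08 (adjusted p = 0.204).

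Thrb (Entrez gene 21834, chromosome 14) was at 4.53, 4.78, 4.42 and 4.46 in control fed, 4.39, 4.16 and 4.35 in control fasted, 4.40, 4.86, 4.38 and 4.56 in knockout fed and 4.36, 4.20 and 4.44 in knockout fasted mice. These values are near the background signal. All control fasted arrays were below all control fed arrays, while in knockout mice the groups overlapped. The averaged difference was -0.23 ± 0.08, with an unadjusted p of 0.0158 and an adjusted p of 0.0979. In the order of the group means, the step from control fed down to knockout fasted, 0.21, was the only one larger than the SD of the groups beside it.

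Of 11 measured partners and coregulators of the receptors, 1 rose and none fell, where 10.0% of all genes passed in either direction. Gps2, a subunit of the nuclear corepressor complex, rose, with fed arrays at 5.38 to 5.83 and fasted arrays at 5.60 to 6.16. Its difference was 0.31 ± 0.08 (adjusted p = 0.0271), with 0.50 ± 0.11 in control mice (adjusted p = 0.0332) and 0.12 ± 0.11 in knockout mice (adjusted p = 0.645), and the interaction of -0.38 ± 0.16 had an adjusted p of 1.00. The call was lost without any of control fasted replicates 1 and 3, knockout fasted replicates 1 and 2 and knockout fed replicate 3, with adjusted p between 0.0538 and 0.0689. The median of the list was -0.10, against 0.00 for all genes.

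Of 16 measured genes known to respond to thyroid hormone in brain or liver, 1 rose and 2 fell, where 10.0% of all genes passed. The median of the list was 0.00, as for all genes. Klf9, a transcription factor that thyroid hormone and glucocorticoids both induce, was at 11.04 to 11.32 in fed arrays, with a median of 11.13, and at 11.31 to 11.75 in fasted arrays, with a median of 11.53. Its difference was 0.39 ± 0.07 (adjusted p = 0.00477). Me1, the cytosolic malic enzyme, was at 9.35 to 9.67 in fed arrays and at 9.19 to 9.33 in fasted arrays, without overlap, and fell by 0.29 ± 0.04 (adjusted p = 0.00203). Gpd2, the mitochondrial glycerol-3-phosphate dehydrogenase, fell by 0.23 ± 0.05 (adjusted p = 0.0148). Me1 and Gpd2 are textbook targets that thyroid hormone raises in liver, and Klf9 is raised by it in brain.

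**Figure D2:**
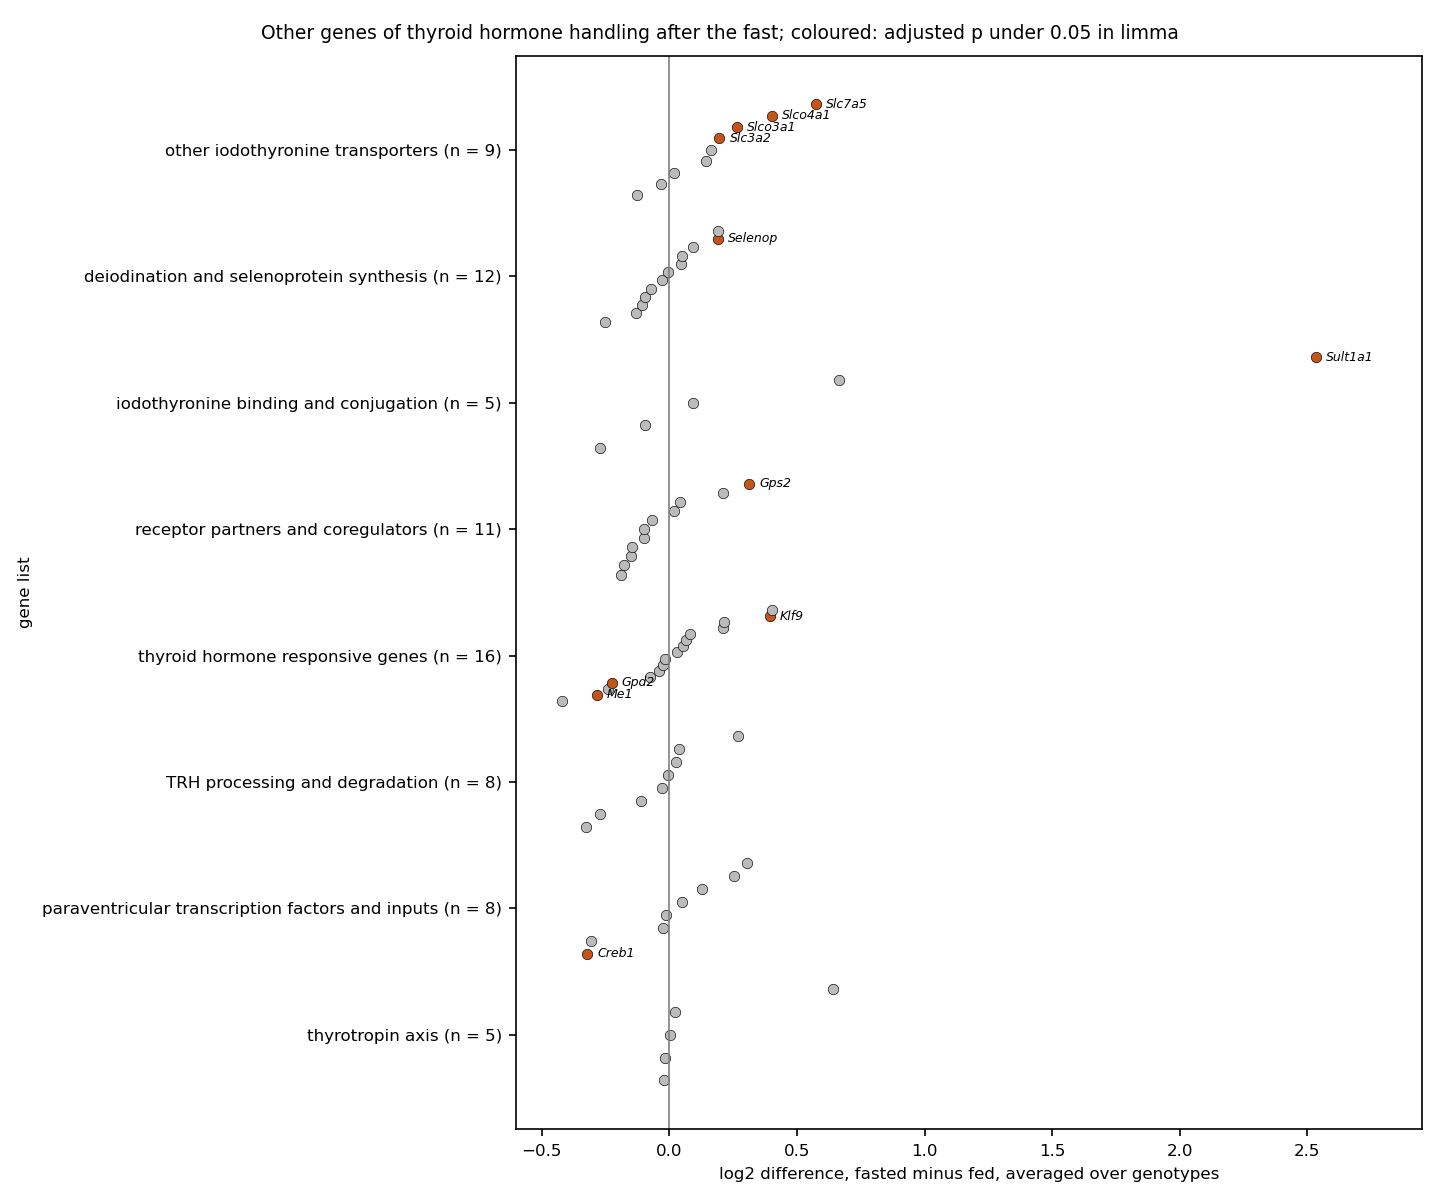
Averaged log2 difference, fasted minus fed (horizontal axis), of the 74 measured genes of 8 lists around thyroid hormone (rows, with the number measured); each point is a gene, and coloured, named points passed an adjusted p of 0.05. Sult1a1 lies far to the right at 2.54, and the carriers Slc7a5, Slco4a1, Slco3a1 and Slc3a2 lie to the right of 0.

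Among 5 measured genes whose products bind or conjugate iodothyronines, Sult1a1 rose and none fell, where 10.0% of all genes passed. Sult1a1, a phenol sulfotransferase that can also sulfate iodothyronines, was at 6.43 to 7.85, with a median of 6.89, in fed arrays and at 9.04 to 9.68, with a median of 9.52, in fasted arrays. The lowest fasted array was above the highest fed array, and the difference was 2.54 ± 0.14 (adjusted p = 2.5e-06). Ttr, the thyroxine carrier made by choroid plexus, ranged from 9.03 to 13.14 over the arrays, with a difference of 0.66 ± 0.72 (adjusted p = 0.61). The score of the choroid plexus markers ran from -1.54 to 1.50 across fed arrays and from -1.43 to 0.87 across fasted arrays. With that score in the fit, the differences of Dio2, Hr and Slco1c1 were 0.84, 0.70 and -0.58, and all 3 passed. With the run of sample numbers as a term, Sult1a1 still passed, at 2.64 (adjusted p = 0.0303). None of the other genes named in the plot of the 8 lists around thyroid hormone did, their adjusted p lying between 0.147 for Slc7a5 and 0.851 for Slco4a1. The cell type markers were not examined gene by gene under that term. The differences under that term were 0.57 for Slc7a5, 0.44 for Klf9, 0.23 for Slc3a2 and 0.18 for Selenop, close to those without it. They were 0.25 for Gps2 and -0.22 for Me1, and smaller than without it for Slco4a1 (0.16), Slco3a1 (0.15), Creb1 (-0.15) and Gpd2 (-0.12).

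Trh (Entrez gene 22044, chromosome 6) was at 7.17, 7.42, 7.64 and 7.49 in control fed mice and at 7.71, 7.66, 7.68 and 7.25 in knockout fed mice. It was at 7.21, 7.27 and 7.71 in control fasted and at 7.39, 7.54 and 7.54 in knockout fasted mice. Fed and fasted arrays covered nearly the same range, and the difference was -0.06 ± 0.10 (adjusted p = 0.759). Its 95% interval ran from -0.28 to 0.16, and no step in the order of the group means of Trh was larger than the SD of the groups beside it. The lowest fed values, 7.17 and 7.25, came from the arrays high in cortex markers. Without both arrays the difference was -0.16 ± 0.08 (adjusted p = 0.258). With the cortex and hippocampus score as a term it was -0.18 ± 0.09 (adjusted p = 0.243). Both fits were added after seeing the data. The neurons of the paraventricular nucleus that drive the thyroid are a part of the Trh-expressing cells in whole hypothalamus, and they were not measured apart from the others.

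Trhr (Entrez gene 22045, chromosome 15) was at 8.58, 7.52, 7.70 and 7.66 in control fed and at 7.70, 7.64, 7.70 and 7.34 in knockout fed mice. It was at 7.16, 7.61 and 7.47 in control fasted and at 7.42, 7.46 and 7.50 in knockout fasted mice. Control fed replicate 1, which also had the highest score of cortex and hippocampus markers, stood far above the other arrays, and the part of that tissue was not tested. The averaged difference was -0.29 ± 0.14 (adjusted p = 0.216), and without both arrays high in cortex markers it was -0.22 (adjusted p = 0.0782). With the cortex and hippocampus score as a term it was -0.11 ± 0.13 (adjusted p = 0.642). The second probe set, 1449572_PM_at, had a difference of -0.28 ± 0.14 (adjusted p = 0.218).

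None of 8 measured genes of TRH processing and degradation passed in limma, and the smallest p was that of Trhr2, a second TRH receptor, with a difference of 0.27 ± 0.08 (adjusted p = 0.0611) at levels near the background signal. Without control fasted replicate 2 its adjusted p was 0.0346, and without knockout fasted replicate 3 it was 0.0276. Among 8 measured transcription factors and input receptors of the paraventricular nucleus, 1 fell and none rose, where 10.0% of all genes passed. Creb1, the factor that binds cyclic AMP response elements, was at 9.10 to 9.34 in fed arrays and at 8.67 to 9.14 in fasted arrays, and fell by 0.32 ± 0.07 (adjusted p = 0.0168). The mean of the probe sets of Creb1 gave -0.13 (adjusted p = 0.115). With the cortex and hippocampus score as a term, 4 calls were lost at differences of -0.31 for Creb1 (adjusted p = 0.0554), -0.18 for Gpd2 (adjusted p = 0.0607), 0.28 for Slco3a1 (adjusted p = 0.0672) and 0.33 for Slco4a1 (adjusted p = 0.0894). None of the 5 measured genes of the thyrotropin axis passed. Cga, the shared subunit of pituitary glycoprotein hormones, was at 3.92 to 6.56 in fed arrays, with a median of 4.32, and had a median of 5.50 in fasted arrays, and Tshb was at 4.07 to 5.02.

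Within the genotypes, none of the 7 genes passed an adjusted p of 0.05 in limma. In control mice 4 had an unadjusted p under 0.05, and 2.76% of all genes passed. Dio2, Hr and Thrb had control fed and control fasted arrays without overlap, which held for 16.5% of all genes. In knockout mice 2 of the 7 genes had an unadjusted p under 0.05, and 0.696% of all genes passed. Dio2 alone of the 7 had no overlap there, as did 13.0% of all genes.

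**Figure D3:**
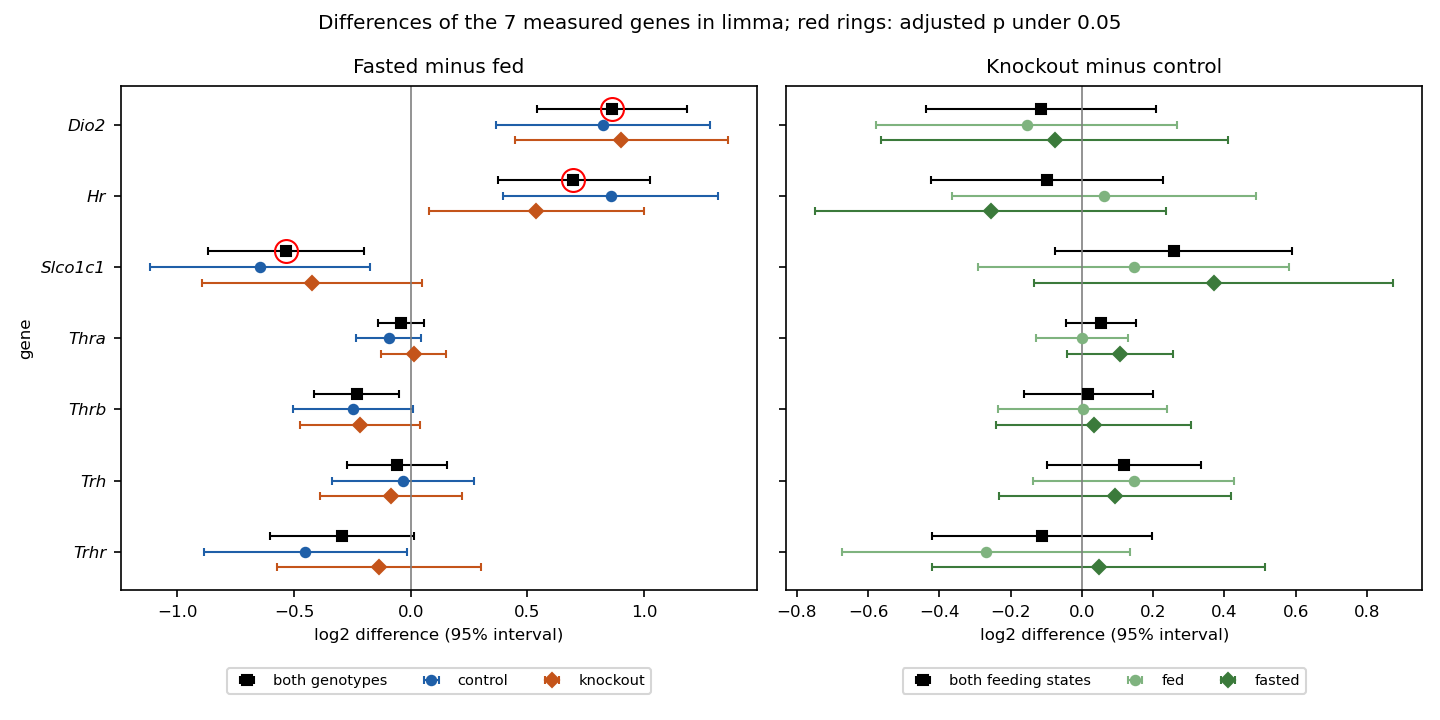
Log2 differences (horizontal axes) of the 7 measured genes (vertical axis) with 95% intervals, for fasted minus fed on the left and knockout minus control on the right; colours and symbols mark the average and the single groups, and red rings mark an adjusted p under 0.05. Rings lie on the averaged fasting differences of Dio2 (0.86), Hr (0.70) and Slco1c1 (-0.54) and on no genotype difference.

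The deletion of Mfn1 moved none of the 7 genes past the threshold in limma, in fed or fasted mice or on average, and none had an unadjusted p under 0.05. Of all genes, 0.00585% passed on average and 0.00585% in fed mice, which is 1 gene each, and 0% in fasted mice. The averaged knockout minus control difference of Dio2 was -0.12 ± 0.15, with a 95% interval of -0.44 to 0.21. That of Slco1c1 was 0.26 ± 0.15, with an interval of -0.08 to 0.59, and that of Hr was -0.10 ± 0.15, with an interval of -0.42 to 0.23. Trh differed by 0.12 ± 0.10, with an interval of -0.10 to 0.34. These intervals do not show that the genotypes are alike. The score of choroid plexus markers was uneven between genotypes. It lay between 0.78 and 0.87 in knockout fasted arrays and between -1.43 and -0.15 in control fasted arrays. Its medians were 1.04 in knockout fed and -1.10 in control fed arrays, whose ranges overlapped. None of the 8 measured choroid plexus markers passed in limma. In 21 alternatives the averaged genotype difference of Slco1c1 ranged from -0.02 to 0.35 and never passed.

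The fasting difference was not shown to depend on genotype for any of the 7 genes, and 0% of all genes passed the interaction in limma. For Dio2 the interaction, in which the fasting difference of control mice is subtracted from that of knockout mice, was 0.08 ± 0.30, with an interval of -0.57 to 0.72. It was -0.32 ± 0.30 for Hr, with an interval of -0.97 to 0.33, and 0.23 ± 0.31 for Slco1c1, with an interval of -0.44 to 0.89. For Hr and Slco1c1, the intervals include interactions as large as the averaged fasting differences.

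Within the fasted arrays, Hr and Slco1c1 stood in nearly opposite order, a pattern chosen after its values were seen. Hr was highest in control fasted replicate 3 and knockout fasted replicate 2, the arrays in which Slco1c1 was lowest, and it was lowest in knockout fasted replicate 3, in which Slco1c1 was highest. Klf9 was also highest in knockout fasted replicate 2 and control fasted replicate 3, and lowest in knockout fasted replicate 3. Other genes shared this pattern. Creb1 and Me1, like Slco1c1, were lowest in control fasted replicate 3 and knockout fasted replicate 2, and highest in knockout fasted replicate 3. Sult1a1, Slc3a2 and Gps2 were lowest in knockout fasted replicate 3. Of all genes, 998 passed on average without knockout fasted replicate 2 and 2120 without knockout fasted replicate 3, against 1715. Dio2 followed the order of Hr only among the knockout fasted arrays, with replicate 2 highest (8.87) and replicate 3 lowest (8.28). Among the control fasted arrays Dio2 was highest in replicate 2 (8.91), in which Hr was lowest.

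**Figure D4:**
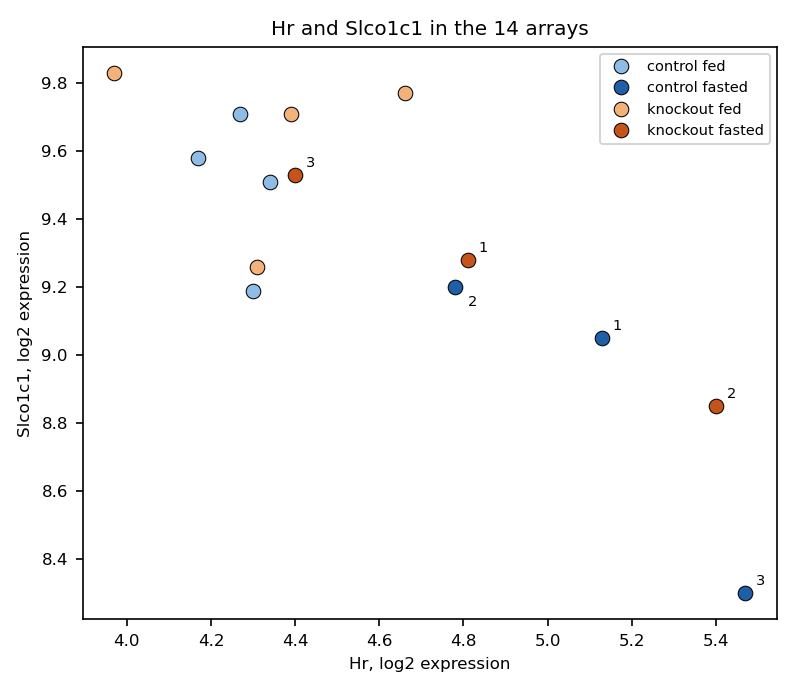
Log2 expression of Hr (horizontal axis) against Slco1c1 (vertical axis) in the 14 arrays, coloured by group, with the replicate number beside fasted arrays. The fasted arrays run from knockout fasted replicate 3 (Hr 4.40, Slco1c1 9.53) to control fasted replicate 3 (Hr 5.47, Slco1c1 8.30), and the fed arrays lie at Hr values of 4.66 or lower.

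As a description over the 14 arrays, which share the fed and fasted groups, the genes whose levels followed Dio2 most closely were Vmp1 (Pearson's r = 0.95, Spearman's rho = 0.95), Kcnk1 (r = 0.94, rho = 0.96) and Zcchc24 (r = 0.94, rho = 0.94). Those closest to Hr were Oscp1 (r = 0.94, rho = 0.93), Zbtb16 (r = 0.94, rho = 0.90) and Smim3 (r = 0.94, rho = 0.84). Those closest to Slco1c1 were Ccnd2 (r = 0.95, rho = 0.93), Slc30a5 (r = 0.94, rho = 0.91) and Fam124a (r = 0.93, rho = 0.87). Zbtb16, a transcription factor, was at 5.65 to 6.51 in fed and 6.69 to 8.65 in fasted arrays, and was highest in the same fasted arrays as Hr. Ccnd2, a cell cycle cyclin, was lowest, at 6.54, in control fasted replicate 3, as Slco1c1 was.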

How the data were processed

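Hypothalamic RNA was measured on Affymetrix arrays. The deposited table holds log2 values, for which the submitters' processing notes name RMA and affy without versions. RMA corrects background, normalises arrays to 1 distribution and summarises probe sets, which compresses low values. The values were used as deposited, and the number of arrays limits the precision.

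Genes were named through the annotation of the platform: of 45141 probe sets, 28898 name 1 gene, 551 name several and 15692 have no name. Of the gene IDs, 99.3% matched RefSeq (GRCm38.p6). The fit used limma 3.58.1 under R 4.3.3 (lmFit with 1 coefficient per group, 7 contrasts, eBayes, residual degrees of freedom 10), two-sided, with Benjamini-Hochberg adjustment over 17097 genes and a threshold of 0.05. The fit was tested on simulated data. Group means are given with SD and differences with SE.

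The 8 genes, the pathway lists (85 genes, 74 measured) and the marker lists were chosen with earlier results of these data known. Named from each pathway list are the genes past the threshold in the averaged fasting comparison, at most 4 by p, or the gene with the smallest p. For likeness, the 3 genes with the highest Pearson's r were named. Other named genes (Ttr, Dio1, Tshb and the markers) were chosen after their values were seen. The sample numbers are all different and pair no samples. Motif matches were counted in the RefSeq promoter windows of 250 bases before to 50 after each start.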

Additional observations from a re-analysis of the deposited data

Results flagged for a closer look

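Of 40 groups of 4 fed arrays tested (Dixon's gap test), 5 held an array that stood far from the other 3, and chance marks about 1 group in 20. Trh was at 7.25 in knockout fed replicate 4, while the other knockout fed arrays were at 7.66 to 7.71. Trhr was at 7.34 in the same array, against 7.64 to 7.70. Trhr was at 8.58 in control fed replicate 1, against 7.52 to 7.70 in the other control fed arrays. Creb1 was at 9.10 in knockout fed replicate 1, against 9.28 to 9.30. Cga was at 6.55 in knockout fed replicate 4, against 3.97 to 4.18. Control fed replicate 1 and knockout fed replicate 4 are the arrays with the highest scores of cortex and hippocampus markers.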

How the results depend on the processing

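The averaged fasting difference of Dio2 passed the threshold in 20 of 21 alternatives (0.58 to 0.98) and that of Hr in 19 of 20 (0.56 to 0.81), and that of Slco1c1 in 7 of 21 (-0.62 to -0.09). The exception for Dio2 and Hr was the run of sample numbers as a covariate, under which 0 of the 7 genes and 15 of all genes passed, against 3 and 1715. Under it Slco1c1 was at -0.09 and Dio2 at 0.92, and 1 fed array alone separates the run from fasting. Leaving out each array in turn left 2 to 3 of the 7 genes on average, 0 to 2 in control mice and 0 in knockout mice. In control mice, where 0 passed, 1 passed once the lowest 40% of genes by mean were removed (Dio2), with the mean of probe sets, a trended and robust prior or only the groups compared (Hr), and, added after seeing the data, without the 2 arrays with high cortex markers (Dio2). The filter leaves Hr and Thrb untested. The averaged differences of Dio2, Hr and Slco1c1 kept their sign in every alternative run. Of all genes, 998 passed on average without knockout fasted replicate 2 and 1130 with the cortex and hippocampus score as a covariate, also added after seeing the data, under which Slco1c1 was at -0.42 (adjusted p = 0.154). With a trended and robust prior its adjusted p was 0.0715. In control mice, with 472 genes called, the count was 770 with a trended and robust prior, 299 with the cortex and hippocampus score, 2 with the run of numbers, and 216 to 314 when control fasted replicate 1 or 3, or 1 of control fed replicates 2 to 4, was left out. In knockout mice, with 119 called, it was 231 after the filter, 341 under the trended and robust prior, 10 with only the groups compared, 79 with the cortex and hippocampus score and 0 with the run of numbers. It was 63 to 71 when control fasted replicate 2, or 1 of those control fed replicates, was left out, 37 and 40 without knockout fed replicates 3 and 2, 59 and 18 without knockout fasted replicates 1 and 2, and 363 without knockout fasted replicate 3. The causes of these changes in counts were not tested. No paired analysis was possible because the sample numbers are all different.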

Other observations

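Of 9 measured microglia markers, 5 were lower in fasted mice on average over the genotypes, none was higher and 4 did not pass. Of all genes, 10.0% passed in that comparison. In control mice 4 of the 9 markers passed, all lower, where 2.76% of all genes passed. In knockout mice 0 passed in limma, where 0.696% of all genes did, and 3 had an unadjusted p under 0.05. P2ry12, a purinergic receptor of resting microglia, fell by 0.77 ± 0.10 (SE, adjusted p = 0.000638 in limma), and Aif1, a calcium-binding protein of these cells, fell by 0.72 ± 0.11 (adjusted p = 0.00172). Cx3cr1, the fractalkine receptor, fell by 0.58 ± 0.16 (adjusted p = 0.036), Trem2 by 0.52 ± 0.07 (adjusted p = 0.00082) and Tyrobp, its signalling partner, by 0.35 ± 0.06 (adjusted p = 0.00491). The score of the list lay between 0.05 and 0.25 in fed arrays and between -0.35 and 0.02 in fasted arrays. Knockout fed replicate 1, the fed array of the lower run of sample numbers, had the lowest fed score, 0.05.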
